A study of Arabidopsis thaliana with 14 samples.

Results

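The messenger RNA export adaptors described here are 7 genes of Arabidopsis thaliana whose products join the THO core in the TREX complex: the helicase genes UAP56A (AT5G11170) and UAP56B (AT5G11200), the adaptor genes ALY1 (AT5G59950), ALY2 (AT5G02530), ALY3 (AT1G66260) and ALY4 (AT5G37720), and MOS11 (AT5G02770). They were taken by gene identifier, with no rule on measured values, though earlier results of these data were known. They make up 7 of the 33602 genes in the tables of read counts. All 7 passed the filter on low counts in every comparison. None of them is among the 1462 extensions of 3′ untranslated regions that were counted separately, so only gene body counts are described.

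The counts come from sequencing of polyadenylated RNA of roots in 14 samples, all in the Columbia (Col-0) ecotype. Roots from 3 weeks old plants in pots came from pho1-7hpr1-5, pho1-7tex1-4, pho1-7 and wild-type Col-0, with 2 samples each and reads that the labels call single-end, where the study's text speaks of paired-end reads. Roots that the labels give as 10 day old, from plants on Petri dishes, came from tex1-4 and wild-type Col-0, with 3 samples each and paired-end reads (the study's methods give a shorter time on plates). TEX1 and HPR1 encode subunits of the THO core, and PHO1, the phosphate exporter that loads phosphate into the xylem, is disrupted by a T-DNA in pho1-7. Each mutation is represented by 1 allele (the study's methods write hpr1-6 where the labels write hpr1-5), both double mutants carry pho1-7, and neither hpr1-5 alone nor tex1-4 alone in pots was among the samples analysed here. The design text calls the samples biological replicates, and all p-values measure the spread between these samples.

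In eukaryotes, TREX couples transcription and processing of messenger RNA to its export from the nucleus. UAP56, a DEAD-box RNA helicase known as Sub2 in yeast and DDX39B in humans, loads adaptor proteins onto the transcript. ALY proteins, relatives of yeast Yra1, bind RNA and hand it to the export receptor, and MOS11 is the plant relative of human CIP29, which binds UAP56 in the complex. Arabidopsis has a pair of UAP56 genes and several ALY genes, so each step is served by related copies.

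Each sample had 56068761 to 110039106 reads assigned to genes. The labels were checked on the mutated genes, in CPM (reads of a gene per 1000000 gene reads of its sample, after TMM scaling, which evens out differences in composition between libraries). TEX1 averaged 0.827 CPM in pho1-7tex1-4 and 12.6 CPM in pho1-7, and 2.55 CPM in tex1-4 and 15.5 CPM in Col-0 on plates. HPR1 averaged 11.7 CPM in pho1-7hpr1-5 and 33.8 CPM in pho1-7. PHO1 averaged 187 CPM in pho1-7 and 953 CPM in Col-0. The 4 shoot markers (RBCS1A, RBCS3B, LHCB1.1 and LHCB2.1) summed to 23.2 to 54.4 CPM in pho1-7hpr1-5, 1.89 and 37.1 CPM in pho1-7tex1-4, 38.5 to 42.5 CPM in pho1-7 and 20.6 to 40.5 CPM in Col-0 in pots, and to 12.4 to 15.3 CPM in tex1-4 and 21.6 to 32.6 CPM in Col-0 on plates, and none was at 0 throughout a group. Replicate 1 of pho1-7tex1-4 was thus far lower than replicate 2 in these markers, and without either of the 2 samples the member calls in pho1-7tex1-4 against pho1-7 held. The 5 root markers (SCR, SHR, COBL9, CASP1 and PYK10) summed to 762 to 806 CPM in pho1-7hpr1-5, 1158 to 1308 CPM in pho1-7tex1-4, 1181 to 1270 CPM in pho1-7 and 1686 to 1871 CPM in Col-0 in pots, and to 9361 to 11850 CPM in tex1-4 and 17850 to 19490 CPM in Col-0 on plates. PYK10 made up most of these sums, at 544 CPM in pho1-7hpr1-5 and 995 CPM in pho1-7 on average, and it was the only root marker called in pho1-7hpr1-5 against pho1-7, in pho1-7 against Col-0 and in tex1-4 against Col-0 on plates, lower each time (edgeR). None of the 5 was called in pho1-7tex1-4 against pho1-7. In whole roots a lower count can come from fewer cells of a type or from less RNA per cell, and these cannot be told apart. The part of the marker levels in the results on the adaptors was not tested. Replicate 2 of Col-0 on plates stood apart from the other Col-0 plate samples in the counts of all genes (chi-square per degree of freedom 132 and 106, against 12.7 between replicates 1 and 3), and the effect of leaving it out is given with the results on plates.

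UAP56A and UAP56B lie near each other on chromosome 5, in the same orientation and 10155 bases apart. In RefSeq TAIR10.1 UAP56A lies at chr5:3553096-3557018 and UAP56B at chr5:3567174-3571039, both on the plus strand. Their coding sequences aligned over 1284 bases with 97.2% identity, and a further 177 coding bases of the longest UAP56B transcript had no counterpart in UAP56A. All 36 differing bases fell at the third position of a codon, and 36 of the 36 left the encoded amino acid the same. The longest stretch without a difference was 176 bases, and 503 of the 983 windows of 30 coding bases that lie inside 1 exon were identical in both genes. The sequences below are shown because they decide which reads can be given to one copy: the first pair opens the coding sequence (chr5:3553334-3553363 and chr5:3567389-3567418) and is identical, and the second pair is the earliest of the windows with the most differences (chr5:3556509-3556538 and chr5:3570550-3570579), with the 5 differing bases in capitals.
UAP56A start: atgggagacgctagagacaacgaagcctac
UAP56B start: atgggagacgctagagacaacgaagcctac
UAP56A near the end: gaActtccGgagcagattgatacTtcAacC
UAP56B near the end: gaGcttccTgagcagattgatacAtcGacT

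A read that lies inside an identical stretch can be placed in either gene. Of the 50-base stretches of the UAP56A transcript, 23.4% also occurred in UAP56B, and 8.6% of its 100-base stretches did. Over the whole library, reads with more than 1 placement made up 3.41% to 4.15% of all counted reads in pots and 4.77% to 5.12% on plates. They were not assigned to genes, so both UAP56 levels rest on the reads that could be told apart. The share lost at UAP56A and UAP56B was not measured and may differ from these values, so their levels are uncertain.

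**Figure D1:**
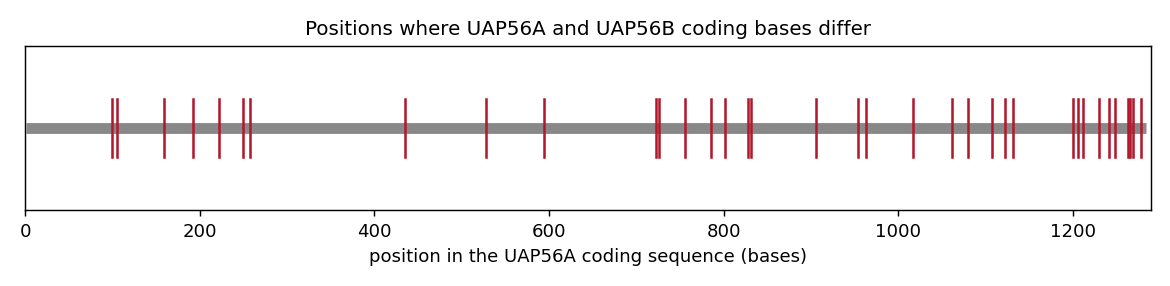
The horizontal axis gives the position in the UAP56A coding sequence in bases, the grey bar is the 1284 aligned coding bases, and each red tick is 1 of the 36 positions where UAP56B has another base. Long stretches carry no tick, the longest being 176 bases, and the ticks lie closest together at the 3′ end.

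The 4 ALY genes are further apart. ALY1 lies at chr5:24139939-24141937 on the plus strand, and ALY2 (chr5:564085-565925), ALY3 (chr1:24695637-24698914), ALY4 (chr5:14981619-14984730) and MOS11 (chr5:627034-629280) on the minus strand. ALY3 and ALY4 were the most alike in coding sequence (81.5% identity over 831 aligned bases), ahead of ALY1 and ALY2 (71.4% over 724 bases), and the other pairs had 64.2% to 68.1%. No 50-base stretch was shared by any 2 of the ALY transcripts, so their reads can be told apart. The most alike stretch of 30 coding bases that lies in 1 exon in all 4 genes is shown to set the copies side by side, with bases that differ from ALY1 in capitals (chr5:24141128-24141157 in ALY1, chr5:564924-564953 in ALY2, chr1:24696419-24696448 in ALY3 and chr5:14982478-14982507 in ALY4, each read 5′ to 3′ along its gene).
ALY1: ctggatggaaaacccatgaagatagagatt
ALY2: TtggatggaaaacTGatgaagatagagatt
ALY3: TtggatggaaGGccTatgaaACtGgagatt
ALY4: TtggatggaaGGccAatgaGACtTgagatt

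In this stretch ALY2 had 3 bases, ALY3 7 bases and ALY4 8 bases that differ from ALY1. Genes on the opposite strand overlapped 0.1% to 5.3% of the exon bases of UAP56B, the 4 ALY genes and MOS11, and none overlapped UAP56A. The libraries keep strand.

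The comparisons ask how transcripts of the export adaptors stand when a THO subunit is mutated. Across the THO mutants, ALY1 was the member that rose most and MOS11 was the one that fell. Adding hpr1-5 to pho1-7 raised 6 of the 7 members and lowered MOS11, while adding tex1-4 raised UAP56B, ALY1 and ALY2, lowered MOS11 and left UAP56A, ALY3 and ALY4 below the threshold. On plates, tex1-4 against Col-0 raised UAP56B, ALY1 and ALY2 and lowered MOS11. No member was called in pho1-7 against Col-0, where all 7 were slightly higher in pho1-7, and none changed more than 2-fold in any comparison.

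Calls were made at an adjusted p under 0.1 (edgeR's quasi-likelihood test, Benjamini-Hochberg adjustment over all genes). The study's methods state this threshold for 3′ extensions, together with a change over 2-fold, and the counts with that minimum are given too. Such calls were common: 46.4% of the 21972 genes tested were called in pho1-7tex1-4 against pho1-7 (24.5% higher and 21.9% lower), where 3 members were called higher and 1 lower. In pho1-7hpr1-5 against pho1-7, 41.2% of genes were called (21.2% higher and 20% lower), with 6 members higher and 1 lower. The median log2 change of the 7 members was 0.17 in pho1-7tex1-4 and 0.36 in pho1-7hpr1-5, beside medians of 0.02 and 0.01 over all genes tested. Values of the groups did not overlap for 5 of the 7 members in pho1-7tex1-4 against pho1-7 (70.4% of all genes) and for all 7 in pho1-7hpr1-5 against pho1-7 (64.4% of all genes). Both comparisons use the same 2 pho1-7 samples. A change over 2-fold that was also called was rarer, at 5.02% of genes in pho1-7tex1-4 and 5.19% in pho1-7hpr1-5 against pho1-7, 4.09% between the double mutants, 1.87% in pho1-7 against Col-0 and 5.42% in tex1-4 against Col-0 on plates, and 0 members reached it in any of these.

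**Figure D2:**
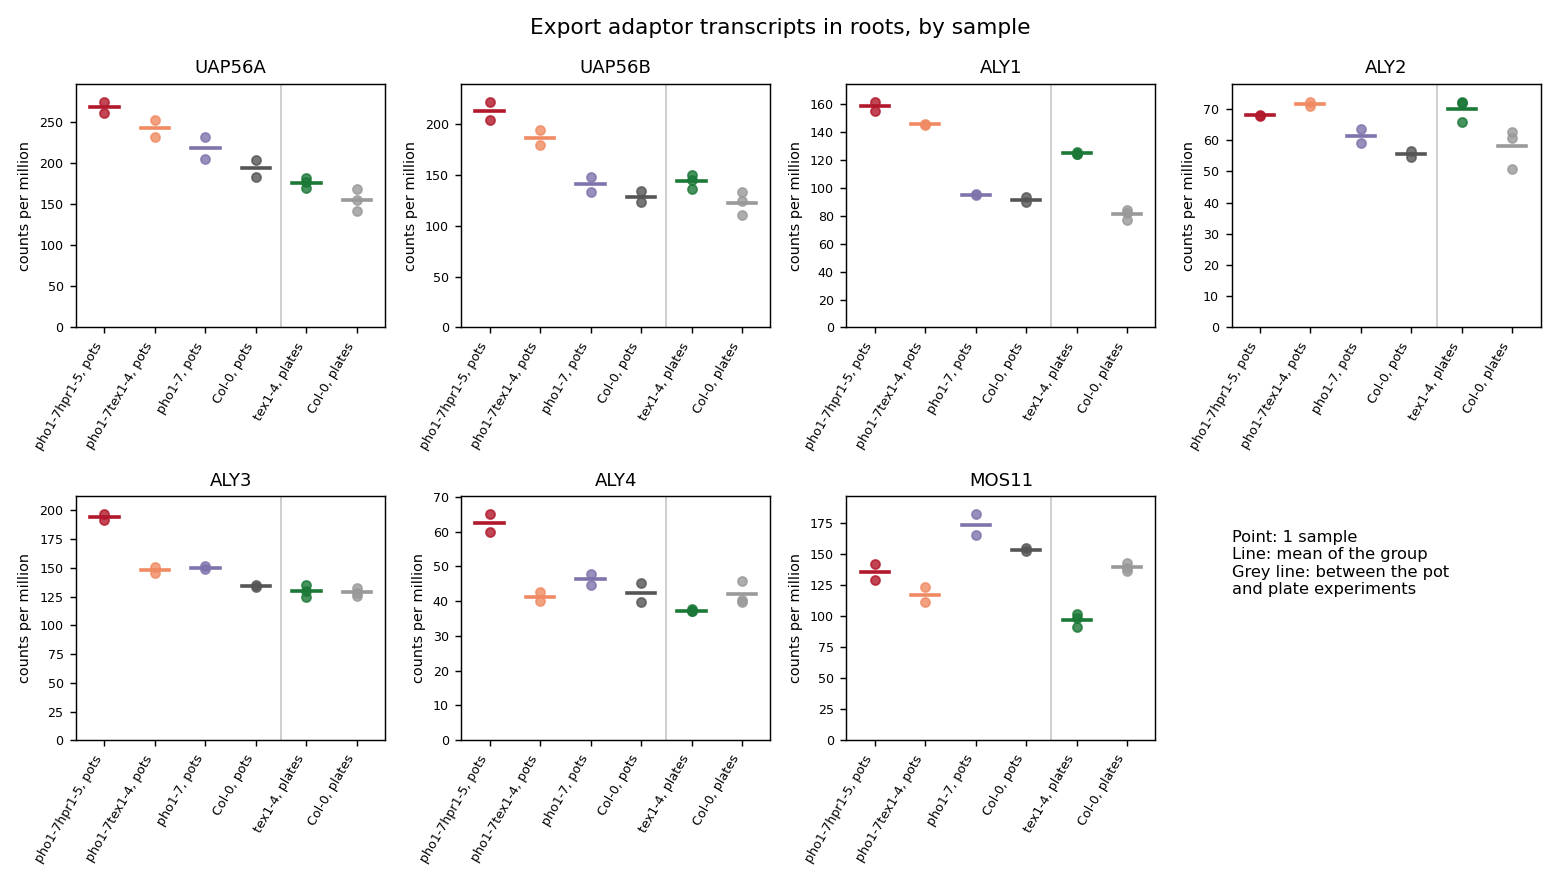
Each panel gives 1 gene, with CPM from 0 on the vertical axis, 1 point per sample, a line at the mean of each group, and a grey line between the pot and plate experiments. ALY1 sits at 145 to 162 CPM in the double mutants and at 90.0 to 95.7 CPM in pho1-7 and Col-0 in pots, MOS11 runs the other way, and ALY3 and ALY4 are higher in pho1-7hpr1-5 than in every other sample.

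Of the helicases, UAP56A had 261 and 275 CPM in pho1-7hpr1-5 and 252 and 232 CPM in pho1-7tex1-4, against 205 and 232 CPM in pho1-7, with 204 and 184 CPM in Col-0. Both pho1-7hpr1-5 samples lay above both pho1-7 samples, whereas pho1-7tex1-4 and pho1-7 overlapped at 232 CPM. UAP56A rose by 0.28 on the log2 scale in pho1-7hpr1-5 (SE 0.085, adjusted p = 0.0367 by edgeR's quasi-likelihood test). Without replicate 2 of pho1-7hpr1-5 the change was 0.25 (adjusted p = 0.134, edgeR) and without replicate 1 of pho1-7 it was 0.20 (adjusted p = 0.173, edgeR), so the call rests on each of these 2 samples. In pho1-7tex1-4 the difference was 0.17 (95% interval -0.03 to 0.36, adjusted p = 0.157, edgeR) and was not called. Leaving out 1 sample gave 0.08 to 0.26, and without replicate 2 of pho1-7 UAP56A was called higher (adjusted p = 0.0725, edgeR).

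UAP56B had 205 and 222 CPM in pho1-7hpr1-5 and 194 and 179 CPM in pho1-7tex1-4, against 134 and 148 CPM in pho1-7, with 135 and 123 CPM in Col-0. All 4 double mutant samples lay above all 4 others, a split whose share over all genes was not counted. UAP56B rose by 0.59 in pho1-7hpr1-5 (SE 0.0796, 1.5-fold, adjusted p = 0.00152, edgeR) and by 0.42 in pho1-7tex1-4 (SE 0.0794, 1.34-fold, adjusted p = 0.00603, edgeR), on the log2 scale.

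On plates UAP56A had 181, 177 and 169.6 CPM in tex1-4, against 169, 141 and 155 CPM in Col-0. The lowest tex1-4 sample and the highest Col-0 sample (168.7 CPM) were almost level, and the difference of 0.19 (95% interval -0.00306 to 0.38) was not called (adjusted p = 0.127, edgeR). UAP56B had 150.0, 146 and 137 CPM in tex1-4, against 134, 110.4 and 124 CPM in Col-0. Its groups did not overlap and UAP56B rose by 0.24 (SE 0.0875, adjusted p = 0.0847, edgeR). That call was lost without any single sample other than replicate 1 of Col-0, for example at 0.16 (adjusted p = 0.106, edgeR) without replicate 2 of Col-0 and at 0.21 (adjusted p = 0.232, edgeR) without replicate 1 of tex1-4.

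Among the ALY adaptors, ALY1 had 162 and 156 CPM in pho1-7hpr1-5 and 145 and 146 CPM in pho1-7tex1-4, against 95.7 and 94.9 CPM in pho1-7, with 93.2 and 90.0 CPM in Col-0. The replicates of each group lay within 7 CPM of one another, and no mutant sample came near the pho1-7 samples. ALY1 rose by 0.73 on the log2 scale in pho1-7hpr1-5 (SE 0.0541, 1.65-fold, adjusted p = 0.000157, edgeR) and by 0.63 in pho1-7tex1-4 (SE 0.054, 1.55-fold, adjusted p = 0.000332, edgeR). Ordered by p, ALY1 stood at place 125 of the 21972 genes in pho1-7hpr1-5 and at place 173 in pho1-7tex1-4.

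On plates ALY1 rose too. It had 124, 126 and 124 CPM in tex1-4, against 77.3, 82.0 and 84.1 CPM in Col-0, with no overlap. ALY1 rose by 0.63 (SE 0.0583, 1.55-fold, adjusted p = 0.00136, edgeR), and leaving out any 1 plate sample gave 0.59 to 0.66.

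ALY2 moved less. It had 67.8 and 68.2 CPM in pho1-7hpr1-5 and 72.4 and 71.03 CPM in pho1-7tex1-4, against 59.1 and 63.5 CPM in pho1-7, with 56.5 and 54.6 CPM in Col-0. ALY2 rose by 0.24 in pho1-7tex1-4 (SE 0.0547, adjusted p = 0.0116, edgeR) and by 0.14 in pho1-7hpr1-5 (SE 0.0547, adjusted p = 0.0867, edgeR), on the log2 scale. The call in pho1-7hpr1-5 was lost under most of the alternative settings, among them DESeq2 (0.14, adjusted p = 0.168) and the fit without replicate 1 of pho1-7 (0.09, adjusted p = 0.323, edgeR). On plates ALY2 had 72.02, 72.4 and 65.7 CPM in tex1-4, against 62.8, 50.8 and 60.7 CPM in Col-0, where replicate 2 was the lowest. ALY2 rose by 0.28 on plates (SE 0.095, adjusted p = 0.07, edgeR), and the call was lost without replicate 3 of Col-0 (adjusted p = 0.117, edgeR) and without replicate 1 or 2 of tex1-4 (adjusted p = 0.189 and 0.196, edgeR).

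ALY3 and ALY4, the pair closest in sequence, differed between the 2 double mutants. ALY3 had 196 and 192 CPM in pho1-7hpr1-5 and 151 and 146 CPM in pho1-7tex1-4, against 151 and 149 CPM in pho1-7, with 135 and 133 CPM in Col-0. The pho1-7hpr1-5 samples lay above pho1-7, the pho1-7tex1-4 samples overlapped with it, and the Col-0 samples lay below it. ALY3 rose by 0.36 in pho1-7hpr1-5 (SE 0.0546, adjusted p = 0.00238, edgeR), while its difference in pho1-7tex1-4 was 0.00 on the log2 scale (95% interval -0.13 to 0.13, edgeR).

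ALY4, the lowest member in CPM, had 64.9 and 59.9 CPM in pho1-7hpr1-5 and 42.7 and 39.9 CPM in pho1-7tex1-4, against 47.9 and 44.6 CPM in pho1-7, with 45.1 and 39.8 CPM in Col-0. The pho1-7hpr1-5 samples lay above and the pho1-7tex1-4 samples below both pho1-7 samples. ALY4 rose by 0.42 in pho1-7hpr1-5 (SE 0.0802, adjusted p = 0.00627, edgeR), and the difference of -0.14 in pho1-7tex1-4 (95% interval -0.33 to 0.04, adjusted p = 0.193, edgeR) was not called.

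Set directly against pho1-7tex1-4, pho1-7hpr1-5 had higher ALY4 by 0.57 (SE 0.0803, 1.48-fold, adjusted p = 0.00242, edgeR) and higher ALY3 by 0.36 (SE 0.0545, 1.28-fold, adjusted p = 0.00324, edgeR) on the log2 scale. These were the 2 members called higher in that comparison, in which 36.8% of all genes were called (17.5% higher and 19.3% lower). The other 5 differences, from -0.10 for ALY2 to 0.18 for MOS11, were not called. For ALY1 the difference between the double mutants was 0.09 (95% interval -0.03 to 0.22) and for UAP56B it was 0.16 (95% interval -0.02 to 0.35). MOS11 was called higher at 0.20 to 0.21 under 4 alternatives, among them DESeq2 (adjusted p = 0.0811).

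On plates ALY3 had 124, 135 and 130.2 CPM in tex1-4, against 126, 132 and 128 CPM in Col-0, and the groups overlapped. ALY4 had 37.0, 37.2 and 37.6 CPM in tex1-4, against 39.7, 45.9 and 40.2 CPM in Col-0, where replicate 2 was the highest. ALY3 differed by 0.02 (95% interval -0.13 to 0.16) and ALY4 by -0.16 (95% interval -0.33 to 0.00266) on the log2 scale, and neither was called (adjusted p = 0.853 and 0.127, edgeR).

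MOS11, the small RNA-binding partner, was the member that fell. It had 129 and 142 CPM in pho1-7hpr1-5 and 123 and 112 CPM in pho1-7tex1-4, against 165 and 182 CPM in pho1-7, with 155 and 152 CPM in Col-0. All 4 double mutant samples lay below all 4 others, where again the share over all genes was not counted. MOS11 fell by 0.37 in pho1-7hpr1-5 (SE 0.0775, adjusted p = 0.00977, edgeR) and by 0.55 in pho1-7tex1-4 (SE 0.0777, adjusted p = 0.0022, edgeR), on the log2 scale. On plates it had 91.4, 102 and 98.3 CPM in tex1-4, against 143, 136 and 139 CPM in Col-0, again with no overlap. MOS11 fell by 0.51 on plates (SE 0.0663, adjusted p = 0.00364, edgeR), and leaving out any 1 plate sample gave -0.55 to -0.47.

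**Figure D3:**
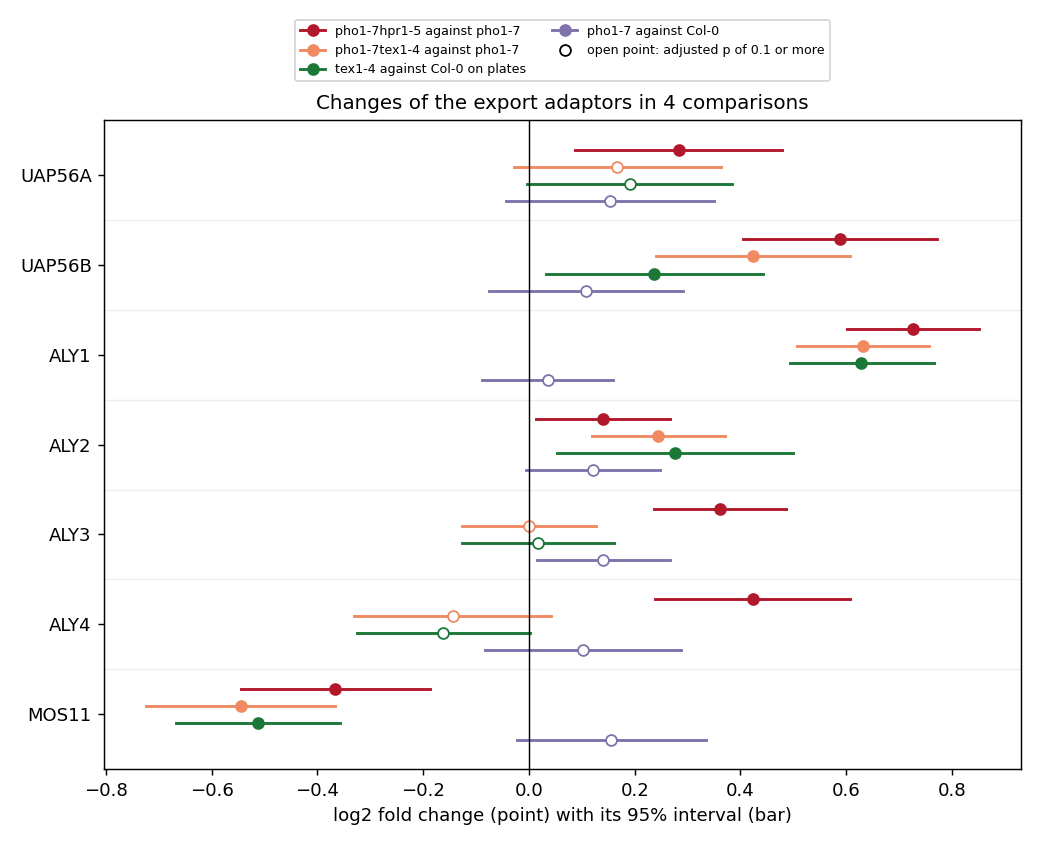
Each row is 1 gene, and the points give the log2 fold change in 4 comparisons with 95% intervals as bars, filled where the adjusted p was under 0.1. ALY1 lies between 0.63 and 0.73 and MOS11 between -0.55 and -0.37 in the 3 comparisons that add a THO mutation, and in pho1-7 against Col-0 all 7 points are open.

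In tex1-4 against Col-0 on plates, 37.2% of the 21772 genes tested were called (17.8% higher and 19.3% lower), and of the 7 members 3 were called higher and 1 lower. The median log2 change of the members was 0.19, beside 0.01 over all genes. The groups did not overlap for 6 of the 7 members (47.9% of all genes). Without replicate 2 of Col-0, 3 members were called, and the log2 change was 0.12 for UAP56A, 0.16 for UAP56B, 0.63 for ALY1, 0.18 for ALY2, 0.03 for ALY3, -0.10 for ALY4 and -0.54 for MOS11, with UAP56B no longer called. With replicate 3 of Col-0 or replicate 1 or 2 of tex1-4 left out, 2 members were called, 1 higher and 1 lower. On plates 2 of the 4 shoot markers were lower in tex1-4, at a summed 12.4 to 15.3 CPM in tex1-4 and 21.6 to 32.6 CPM in Col-0, levels below those of any member.

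Whether tex1-4 acted on the members alike in pots and on plates was tested as the effect in pots (pho1-7tex1-4 minus pho1-7) minus the effect on plates (tex1-4 minus Col-0). No member was called, by edgeR or by DESeq2. Of the 22667 genes tested, edgeR called 4.92% (2.13% higher and 2.79% lower, and 1.81% over 2-fold). An unadjusted p under 0.05 in edgeR was reached by 0 members and by 3660 of the 22667 genes. The difference of effects on the log2 scale was -0.01 for ALY1 (95% interval -0.17 to 0.15), -0.04 for MOS11 (95% interval -0.26 to 0.18), and 0.18 for UAP56B (95% interval -0.10 to 0.45). The UAP56B interval leaves room for a difference as large as its effect in pots. Pots and plates also differ in the pho1-7 background, age, growth medium and read type, which cannot be told apart here.

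The pho1-7 mutant was also set against wild type without a THO mutation. No member was called in pho1-7 against Col-0 by edgeR or by DESeq2. An unadjusted p under 0.05 in edgeR's quasi-likelihood test was reached by 1 member, ALY3, and by 5663 of the 21972 genes tested. The 95% interval of the log2 change of ALY3 was 0.01 to 0.27. In that comparison 13.6% of all genes were called (5.43% higher and 8.16% lower). Without TMM scaling ALY3 was called higher in pho1-7 (0.18, adjusted p = 0.0905, edgeR). The 7 differences ran from 0.04 for ALY1 to 0.16 for MOS11 on the log2 scale, with a median of 0.12 beside 0.01 over all genes, and groups did not overlap for 5 members (58.5% of all genes). MOS11 averaged 174 CPM in pho1-7 and 154 CPM in Col-0 (95% interval of the log2 difference -0.02 to 0.33).

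Wild-type roots differed between the 2 experiments. UAP56A averaged 194 CPM in Col-0 in pots and 155 CPM on plates, higher in pots by 0.32 on the log2 scale (SE 0.0861, adjusted p = 0.00728, edgeR), and ALY1 averaged 91.6 CPM in pots and 81.1 CPM on plates, higher by 0.18 (SE 0.051, adjusted p = 0.0114, edgeR). These were the only 2 members called, both higher, in a comparison that called 63.6% of the 22667 genes (28.1% higher and 35.5% lower). Without TMM scaling the median log2 change of all genes was 0.10 in place of -0.05, the calls over all genes were 8818 higher and 5860 lower in place of 6379 and 8036, and 6 members were called higher. The ALY1 call was lost without replicate 1 of Col-0 in pots (0.15, adjusted p = 0.101, edgeR). Age, medium and read type change together between these groups.

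The make-up of the ALY reads differed between THO mutants and the other genotypes in both experiments, and that of the UAP56 reads did in pots. Shares were not tested between genotypes. ALY1 reads made up 33.0% and 32.7% of all ALY reads in pho1-7hpr1-5 and 35.4% and 36.3% in pho1-7tex1-4, against 27.0% in both pho1-7 samples, with 28.3% in both Col-0 samples. On plates the share of ALY1 was 34.7%, 34.0% and 34.7% in tex1-4, against 25.3%, 26.3% and 26.9% in Col-0. The ALY1 share was higher in every THO mutant sample than in every other sample. ALY3 had 40.0% and 40.4% in pho1-7hpr1-5 and 36.6% and 36.2% in pho1-7tex1-4, against 42.8% and 42.3% in pho1-7. ALY1 and ALY3 had level read shares in replicate 2 of pho1-7tex1-4 (36.3% and 36.2%) and in replicate 1 of tex1-4 (34.7% and 34.8%). The exact Clopper-Pearson 95% interval of a share was narrow, for example 26.45% to 27.62% for ALY1 in pho1-7 replicate 1, and covers counting error only.

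The ALY genes together had 491 and 476 CPM in pho1-7hpr1-5 and 411 and 403 CPM in pho1-7tex1-4, against 354 and 352 CPM in pho1-7, with 329.9 and 318 CPM in Col-0. On plates they had 357, 370.4 and 358 CPM in tex1-4, against 306, 311 and 313 CPM in Col-0. The UAP56 genes together had 465 and 497 CPM in pho1-7hpr1-5 and 447 and 411 CPM in pho1-7tex1-4, against 339 and 380.4 CPM in pho1-7. Every double mutant sample lay above every pho1-7 sample in both sums, which were not tested.

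UAP56B took 43.95% and 44.74% of the reads of both UAP56 genes in pho1-7hpr1-5 and 43.5% and 43.6% in pho1-7tex1-4, against 39.6% and 38.9% in pho1-7, with 39.8% and 40.2% in Col-0. The double mutant samples did not overlap with the others. On plates the share was 45.3%, 45.1% and 44.6% in tex1-4, against 44.2%, 43.9% and 44.5% in Col-0, where the lowest tex1-4 and the highest Col-0 sample were 44.59% and 44.54%. All Col-0 samples in pots lay below all Col-0 samples on plates in this share. Read type, age and medium change together between these groups and cannot be told apart.

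**Figure D4:**
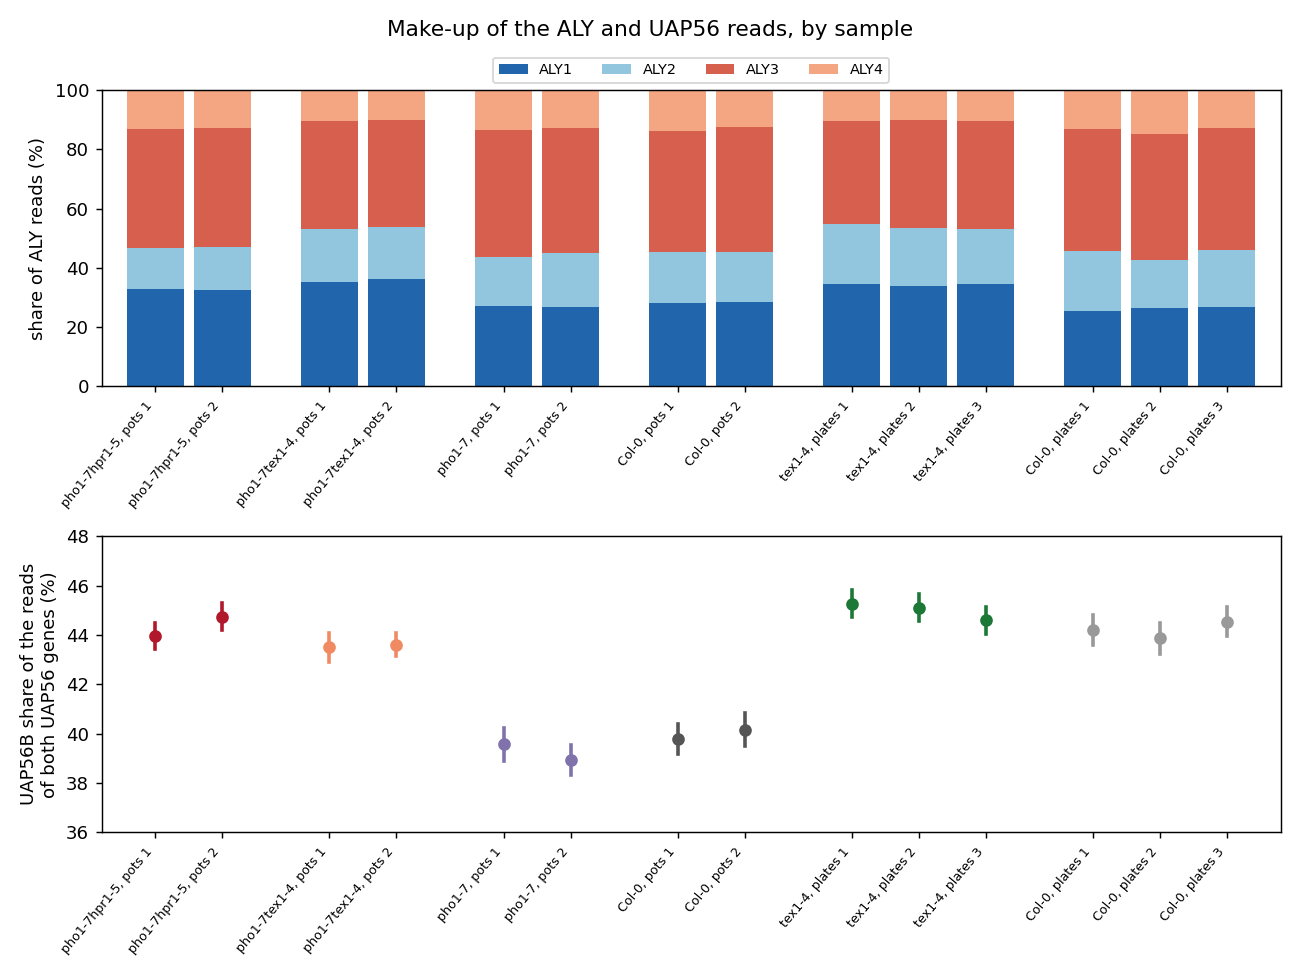
The upper panel stacks the share of each ALY gene in all ALY reads (percent) for the 14 samples, and the lower panel gives the UAP56B share of UAP56A and UAP56B reads (percent, axis from 36 to 48) with exact 95% intervals as bars. The ALY1 block is taller in the THO mutant samples, and the UAP56B share is 43.5% to 44.7% in the double mutants and 38.9% to 40.2% in pho1-7 and Col-0 in pots.

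Levels of different genes were compared per kilobase of annotated exon. Stretches shared by UAP56A and UAP56B were not taken out of their exon lengths. The levels of UAP56A and UAP56B may therefore be too low beside those of the other genes. In Col-0 in pots the order was UAP56A (101 ± 7.39 CPM per kilobase, SD, n = 2), ALY3 (93.9 ± 0.896), MOS11 (88.6 ± 0.964), UAP56B (66.0 ± 4.08), ALY1 (55.1 ± 1.38), ALY2 (43.6 ± 1.06) and ALY4 (31.3 ± 2.73). UAP56A and ALY3 lay within their SDs of each other, and the other neighbours lay further apart than theirs. In pho1-7 UAP56A, ALY3 and MOS11 again came first, at 114 ± 10.2, 105 ± 1.27 and 100.2 ± 6.89 CPM per kilobase (SD, n = 2), and each lay within the SDs of the next.

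In pho1-7hpr1-5 MOS11 stood in the fifth place at 78.3 ± 5.07 CPM per kilobase (SD, n = 2), behind UAP56A (140 ± 5.15), ALY3 (136 ± 2.21), UAP56B (109 ± 6.47) and ALY1 (95.4 ± 2.72). In pho1-7tex1-4 it was again in the fifth place at 67.8 ± 4.75, behind UAP56B (95.7 ± 5.38) and ALY1 (87.6 ± 0.217). On plates ALY1 averaged 75.1 ± 0.619 CPM per kilobase in tex1-4 and 48.8 ± 2.11 in Col-0, and MOS11 56.1 ± 3.02 in tex1-4 and 80.4 ± 1.90 in Col-0 (SD, n = 3 each). ALY1 stood above MOS11 in tex1-4 and in both double mutants, and below it in pho1-7 and in both Col-0 groups.

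The members also varied together to different degrees. Pearson's r of log2 CPM over the 14 samples, centred within each experiment, was 0.96 for UAP56A and UAP56B, 0.87 for ALY3 and ALY4, 0.83 for ALY1 and ALY2, and -0.87 for ALY1 and MOS11. Pairs of a UAP56 and an ALY gene ran from 0.36 (UAP56A and ALY4) to 0.88 (UAP56B and ALY1). The other pairs of ALY genes ran from -0.08 (ALY2 and ALY4) to 0.60 (ALY1 and ALY3). High values were thus not limited to pairs within a family. These values describe points that share libraries and the same few genotypes. Genes that differ between THO mutants and the rest therefore tend to give a strong r, negative where they move in opposite directions. Among the 13561 genes with a mean of at least 10 CPM, the most alike were AT2G45460 for UAP56B (r = 0.99, a protein with an SMAD/FHA domain), AT5G11430 for ALY1 (r = 0.992, SPOC domain and transcription elongation factor S-II protein) and AT1G70620 for MOS11 (r = 0.985, cyclin-like protein). They were AT4G16141 for UAP56A (r = 0.972, GATA zinc finger family), AT5G10160 for ALY2 (r = 0.995, thioesterase superfamily), BBX28 for ALY3 (r = 0.986, B-box zinc finger family) and AT3G14560 for ALY4 (r = 0.977, uncharacterized). For each member 5% of genes had an r above 0.78 to 0.92.

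Other genes of the export pathway moved in both directions. Of 15 genes of the TREX-2 complex and the nuclear pore, which carry messenger RNA through the pore, 2 rose and 4 fell in pho1-7hpr1-5 against pho1-7, 5 rose and 5 fell in pho1-7tex1-4 against pho1-7, and 3 rose and 6 fell in tex1-4 on plates (edgeR, adjusted p under 0.1). Over all genes 41.2%, 46.4% and 37.2% were called in these 3 comparisons, and the counts of this list and of the next 2 stand beside those shares. The TREX-2 scaffold genes SAC3A and SAC3B fell in all 3. SAC3A fell by 0.74 in pho1-7hpr1-5 (63.4 and 105 CPM on average in pho1-7hpr1-5 and pho1-7, adjusted p = 0.000202, edgeR), by 0.67 in pho1-7tex1-4 (65.1 and 105 CPM, adjusted p = 0.000386, edgeR) and by 0.63 in tex1-4 on plates (45.4 and 70.9 CPM in tex1-4 and Col-0, adjusted p = 0.00102, edgeR). SAC3B fell by 0.61 in pho1-7hpr1-5 (adjusted p = 0.000774, edgeR), by 0.61 in pho1-7tex1-4 (adjusted p = 0.000991, edgeR) and by 0.52 on plates (adjusted p = 0.00371, edgeR). CEN2, RAE1 and LOS4 of the list were picked out after their values were seen. CEN2, a centrin gene, fell by 0.66 in pho1-7hpr1-5 (adjusted p = 0.00347, edgeR) and by 0.87 in pho1-7tex1-4 (adjusted p = 0.00147, edgeR). On plates CEN2 fell by 0.97 (adjusted p = 0.0179, edgeR), where Col-0 had 75.7, 134 and 85.7 CPM, highest in replicate 2. RAE1 and LOS4 went the other way and were called higher in all 3 comparisons. RAE1 rose by 0.26, 0.43 and 0.45 and LOS4 by 0.25, 0.26 and 0.24, in the same order. The median log2 change of the 15 genes was -0.01, 0.07 and 0.03 in these 3 comparisons.

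Of 8 genes of the nuclear cap-binding complex and the exon junction complex, which mark processed transcripts, 1 rose and 1 fell in pho1-7hpr1-5, 5 rose and none fell in pho1-7tex1-4, and 3 rose and 1 fell in tex1-4 on plates. CBP80, the large cap-binding subunit, rose by 0.57 in pho1-7hpr1-5 (86.5 and 57.7 CPM in pho1-7hpr1-5 and pho1-7, adjusted p = 0.00073, edgeR) and by 0.62 in pho1-7tex1-4 (87.9 and 57.7 CPM, adjusted p = 7e-04, edgeR). On plates CBP80 differed by 0.17 and was not called (adjusted p = 0.125, edgeR), and it was lower in pho1-7 than in Col-0 in pots (-0.29, adjusted p = 0.039, edgeR). Y14, an exon junction core protein, rose by 0.35 in pho1-7tex1-4 (adjusted p = 0.00394, edgeR) and by 0.27 on plates (adjusted p = 0.046, edgeR), and differed by 0.06 in pho1-7hpr1-5 (adjusted p = 0.501, edgeR).

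Of the 8 genes of the THO core itself, 2 rose and 1 fell in pho1-7hpr1-5, 1 rose and 1 fell in pho1-7tex1-4, and none rose and 2 fell in tex1-4 on plates, the mutated gene counted in each. HPR1 fell by 1.54 in pho1-7hpr1-5 (adjusted p = 7.7e-05, edgeR) and TEX1 fell by 3.95 in pho1-7tex1-4 (adjusted p = 2.47e-05, edgeR) and fell by 2.60 on plates (adjusted p = 7.32e-05, edgeR), on the log2 scale. The median log2 change of the THO list was -0.02, 0.04 and -0.06 in these 3 comparisons.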

How the data were processed

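RNA of 14 root samples was measured. The authors mapped strand-specific reads from polyadenylated RNA to TAIR10.31 with HISAT2 and deposited HTSeq read counts per gene and per 3′ extension, not normalized. Rows for unassigned reads (17.1% to 19.6% of the counted total) stayed out of library sizes and tests. Reads ambiguous between genes, which are among them, made up 0.836% to 1.05% of the counted total. Groups came from the sample labels. Counts were tested with edgeR 4.0.16 in R 4.3.3 (quasi-likelihood test, filterByExpr, TMM, Benjamini-Hochberg adjustment over all genes, adjusted p under 0.1), with the 8 pot samples in 1 fit, the 6 plate samples in another, and all 14 where pots were set against plates. Each SE is the log2 change divided by the root of its F statistic. CPM were scaled by TMM over the 14 samples. DESeq2 1.42.0 was the other tool. The depth of at least 56068761 gene reads gave every member at least 2538 reads per sample, so spread between samples and not counting limits precision.

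The members and gene lists were chosen with earlier results of these data known. All 7 members are named in each comparison, with the mutated genes, up to 2 genes a list (smallest adjusted p in a double mutant against pho1-7) and the most alike gene of each member. CEN2, RAE1 and LOS4 are named beyond that rule. Sequences, coordinates and exon lengths are from RefSeq TAIR10.1, aligned with Biopython 1.88 and mafft 7.526, and all 7 identifiers matched. The count files hold no coordinates.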

Additional observations from a re-analysis of the deposited data

How the results depend on the processing

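The calls of ALY1 and MOS11 in both double mutants and on plates, of UAP56B in both double mutants, of ALY2 in pho1-7tex1-4 and of ALY3 and ALY4 in pho1-7hpr1-5 held under every alternative without a fold minimum. A 2-fold minimum left 0 members in each comparison, and 1102 genes in pho1-7tex1-4, 1140 in pho1-7hpr1-5, 411 in pho1-7 against Col-0, 898 between the double mutants, 1179 on plates, 411 in pots minus plates and 4896 between the Col-0 groups. An adjusted p under 0.05 left 1562 genes in pho1-7 against Col-0, 628 in pots minus plates and 2 members on plates. With all 14 samples in 1 fit, 1575 genes were called in pho1-7 against Col-0. DESeq2 called 1803 genes in pots minus plates and 4 members between the Col-0 groups. Without TMM scaling, 1 member was called in pho1-7 against Col-0 and 6 between the Col-0 groups. The cause of these changes was not tested, except that a stricter threshold calls fewer genes by construction.

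Replicate numbers were not used as pairs in the main fits. Deviations from the group mean correlated between same-numbered samples at -0.0925 (pho1-7tex1-4 and pho1-7), 0.234 (pho1-7hpr1-5 and pho1-7), -0.291 (pho1-7 and Col-0) and 0.0125 (the double mutants). On plates they correlated at 0.138, -0.232 and -0.0249. With 2 samples a group, crossing the numbers only turns the sign, so the pot values cannot show whether samples were paired. With the replicate block 2 members were called on plates, where UAP56B and ALY2 lost their calls, 6 in pho1-7hpr1-5, where ALY2 lost its call, and 5 in pho1-7tex1-4, where ALY4 was called lower (-0.14, adjusted p = 0.0822, edgeR). With the pho1-7 numbers crossed in the block, an alternative chosen after seeing the data, 2327 genes and 0 members were called in pho1-7 against Col-0.

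Direction turned only for differences that were not called. For ALY3 in pho1-7tex1-4 it was -0.019 with RLE scaling, -0.014 without scaling, -0.019 without the low-count filter, -0.0196 with DESeq2, -5.96e-05 with the replicate block, -0.016 with the 2 groups alone and -0.019 with all samples. Without TMM scaling, ALY4 was -0.034 in pots minus plates and ALY2 was 0.083 between the Col-0 groups.

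Leaving out 1 sample at a time gave 6351 to 9732 genes in pho1-7tex1-4, 724 to 3367 in pho1-7 against Col-0, 4071 to 6445 between the double mutants, 4523 to 9421 on plates and 371 to 2592 in pots minus plates. Members called were 2 to 5 on plates and 1 to 3 between the Col-0 groups. The log2 change of ALY3 lay between -0.029 and 0.027 in pho1-7tex1-4 and between -0.015 and 0.0503 on plates. In pots minus plates the ranges were -0.12 to 0.0596 for UAP56A, -0.051 to 0.024 for ALY1, -0.10 to 0.043 for ALY2, -0.064 to 0.0604 for ALY4 and -0.12 to 0.029 for MOS11. Between the Col-0 groups they were -0.000433 to 0.14 for UAP56B and -0.074 to 0.10 for ALY4. A group left with 1 sample was assumed to vary like the others.

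The planned tests of extension ratios gave no value, since no member has an extension count.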
